A study of Homo sapiens with 9 samples.

Results

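The genes TBC1D31, GAD1, TRPV1, HUWE1, ZMYND11, INO80 and PGPEP1 host 7 short non-coding RNAs (sncRNAs) that are among the most abundant unannotated species taken into the functional assay of the study. They are 7 of the 20,163 protein-coding genes annotated on chromosomes 1 to 22, X and Y. They hold 871 of the 3,688,019 alignments in the deposited profile when only the sense strand within the gene bounds is counted. Here and below, HUWE1 is counted without chrX:53583100-53584300, the interval of the miRNAs let-7f-2 and miR-98, unless stated. The profile comes from K562, an established line of chronic myelogenous leukemia that expresses erythroid genes. The 3 batches of K562 cells are replicates in the labels, and the deposited values pool them, so that no value has a replicate error. The libraries were size-selected for inserts of 20–40 nt. The series also has 6 samples of HEK293, an embryonic kidney line, with pooled sncRNA or control vectors in 3 groups by vector and doxycycline, and these were not analysed here.

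An alignment is 1 combination of start, end and strand with the reads that have exactly these ends. The deposited reads of an alignment were found to be its own reads multiplied by the number of listed alignments within 3 nt of it (total shift of both ends, itself included), and division gave the recovered reads used here, 47,670,688 in all. The 7 genes held 137,354 of these, or 0.288%. Alignments that overlap or touch on one strand were merged into clusters. The 95% intervals are Wilson intervals and cover counting error only, as PCR reads without molecular identifiers are not independent molecules. As a check of the cell type, 8 erythroid genes (HBG1, HBG2, HBE1, HBZ, TFRC, GATA1, KLF1 and ALAS2) had a median of 34.95 recovered reads per kb of exon in alignments of at least 18 nt (range 4.89–455), and 7 genes of liver, pancreas, lymphocytes, glia, heart and skin had at most 0.420.

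The hosts encode unrelated proteins. TBC1D31 is a protein of centriolar satellites, GAD1 makes the neurotransmitter GABA from glutamate, and TRPV1 is the cation channel opened by heat and capsaicin. HUWE1 is a HECT-type E3 ubiquitin ligase. ZMYND11 reads trimethylated lysine 36 of histone H3.3, INO80 is the ATPase of a chromatin remodeling complex, and PGPEP1 removes pyroglutamate from the ends of peptides. A short RNA inside such a gene can be cut from the pre-mRNA or mRNA, can be made by its own promoter, or can share its letters with an RNA made elsewhere, such as a tRNA. The precursor of a tRNA is made by RNA polymerase III from a promoter inside the gene (the A box and B box), ends in a run of T in the DNA, and loses its 3′ end as a short trailer.

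The species were chosen for abundance, which is therefore a description. By deposited RPKM (reads scaled by alignment length and library total) they ranked 1, 2, 3, 5, 7, 11 and 12 among the 328 unannotated assay species listed at their coordinates. INO80, the last inside, had an RPKM of 5892, and the species just outside, in PCBD2, had 5655. EIF2AK3, ABCA2, MRPS16, SORT1 and ZMYM2 hosted the 5 others above INO80, with species of 25, 26, 27, 22 and 31 nt. By recovered reads, PGPEP1 came 21st with 343, since the 13-nt length and 13 near neighbours raise its RPKM. Of the 7 species, 5 were shorter than 18 nt and only that of HUWE1, with 23 nt, was within the 20–40 nt of the size selection. Of the other 321 unannotated assay species, 78 (24.3%) were shorter than 18 nt and the median was 22 nt. RPKM divides by length, so a short species ranks above a longer one of equal reads. By recovered reads, which are not divided by length, the short species of TBC1D31, GAD1, ZMYND11 and TRPV1 ranked 1, 2, 7 and 9. Whether the RPKM rule accounts for the short lengths was not tested.

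The first sequences below show a species whose letters occur once in the genome and those whose letters are repeated in it. All bases were read from GRCh37 (hg19) at the listed coordinates and are those of the reference on the strand of the gene. The sequence of the HUWE1 species occurs at 1 position. Those of GAD1, TRPV1 and PGPEP1 have 5, 9 and 37 exact matches, although the methods speak of uniquely placed reads. How reads with several exact matches were placed is not known, so the reads of these 3 species cannot be assigned to the host alone.
HUWE1 (chrX:53571059-53571081, minus): gcctgATGATGAgcactCTGAag
GAD1 (chr2:171678700-171678713, plus): gcgggcggaccttt
TRPV1 (chr17:3497721-3497735, minus): tgtgctctggagttt
PGPEP1 (chr19:18478400-18478412, plus): ggggatgtagctc
The capitals in HUWE1 mark the letters of the C box (ATGATGA, with GTGATGA also searched) and of the D box (CTGA), by which a large family of small nucleolar RNAs is known. The species of ZMYND11 and INO80 also have 1 exact match each, and they are shown here with the more abundant listed sequence that they resemble. Capitals mark the bases at which the members of a pair differ.
ZMYND11 (chr10:287695-287711, plus): CaagcgggtgctcttGt
intergenic (chr10:69524343-69524362, plus): GaagcgggtgctcttAtttt
INO80 (chr15:41341168-41341185, minus): TtgtggtggcttactttA
intergenic (chr15:40886005-40886022, minus): AtgtggtggcttactttT
Counted from 1 at the 5′ end, with the base of the intergenic sequence first, the changes are G1C and A16G in ZMYND11, and A1T and T18A in INO80. The 20-nt intergenic sequence has the letters of a trailer known from serine tRNA. Intergenic means here that no protein-coding gene covers the position on the same strand, and the annotation used holds no tRNA genes.

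The assay species dominated the sense reads of each host, in HUWE1 only with the miRNA interval left out (5.73% with it kept). Together with alignments within 3 nt it held 99.8% of the reads of TBC1D31 (98,962 of 99,113), 99.8% of GAD1 (29,014 of 29,083) and 97.0% of TRPV1 (1250 of 1288, 95% interval 96.0–97.8%). The share was 89.1% in ZMYND11 (2323 of 2608, 87.8–90.2%) and 84.7% in PGPEP1 (593 of 700, 81.9–87.2%). HUWE1 had 82.5% (2717 of 3293, 81.2–83.8%) and INO80 81.6% (1036 of 1269, 79.4–83.7%), so the intervals of PGPEP1, HUWE1 and INO80 overlap. Among the 15,819 protein-coding genes with at least 10 sense alignments, 20.2% had a top cluster with at least 50% of the sense reads, and 11.9% had one whose most abundant alignment was shorter than 18 nt. These background shares are for whole clusters, by which the members ran from 81.7% in INO80 to 99.8% in TBC1D31. They also keep annotated small RNAs, and 3054 genes in place of 3202 had such a cluster without them. The median top cluster held 25.6% of a gene's reads (quartiles 15.8 and 43.8%). As the 7 genes were chosen for an abundant species, nothing is read from their count of 7 of 7. The exact alignment alone held from 46.6% of the reads in ZMYND11 to 96.3% in TBC1D31, and at least 50% in 5 genes, with PGPEP1 at 49.0% (45.3–52.7%) as the other below it.

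**Figure D1:**
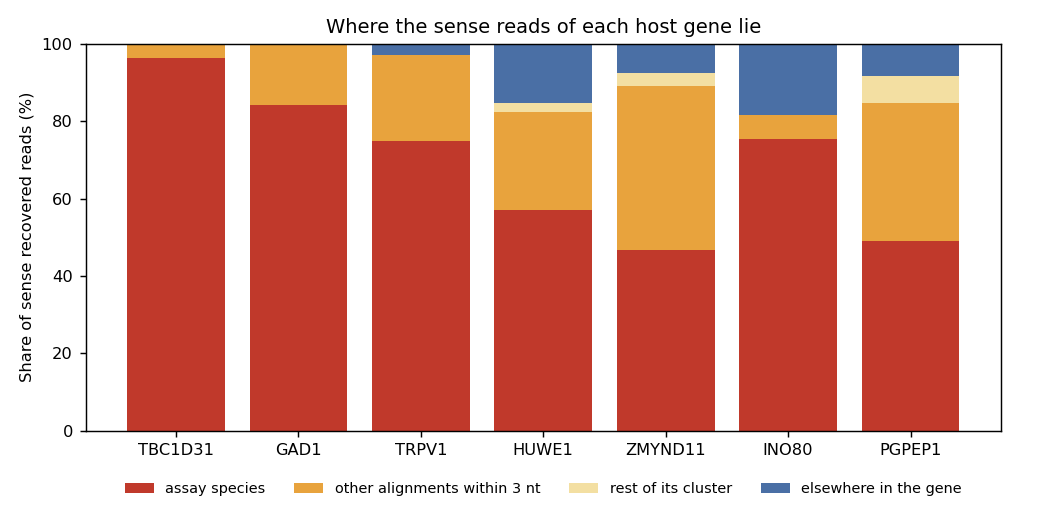
Stacked bars give, for each host gene on the x axis, the share of its sense recovered reads (y axis, %) in the exact assay species, in other alignments within 3 nt, in the rest of its cluster and elsewhere in the gene. The part elsewhere is visible for TRPV1, HUWE1, ZMYND11, INO80 and PGPEP1 and is below 1% in TBC1D31 and GAD1. The miRNA interval of HUWE1 is left out.

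Beside this cluster, and outside the miRNA interval of HUWE1, the genes gave few reads. The 753 alignments outside the 7 assay clusters held 1240 reads in all, and their median was 1 recovered read in each gene. Alignments of 1 read made up from 73.6% of them in ZMYND11 to 88.5% in PGPEP1. Only 10 of the 753 had at least 10 reads: 2 in TBC1D31, 4 in HUWE1, 2 in ZMYND11, 2 in INO80 and none in GAD1, TRPV1 or PGPEP1. Per kb of gene, HUWE1 had the most alignments outside its assay cluster (2.17), followed by PGPEP1 (1.77) and GAD1 (1.02), and TRPV1 had the fewest (0.637). The antisense strand of the same genes had 31 to 85 alignments and 40 to 222 reads per gene, so that in GAD1, TRPV1 and ZMYND11 it held more reads than the sense strand outside the assay cluster (112 against 67, 52 against 38, and 222 against 193).

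**Figure D2:**
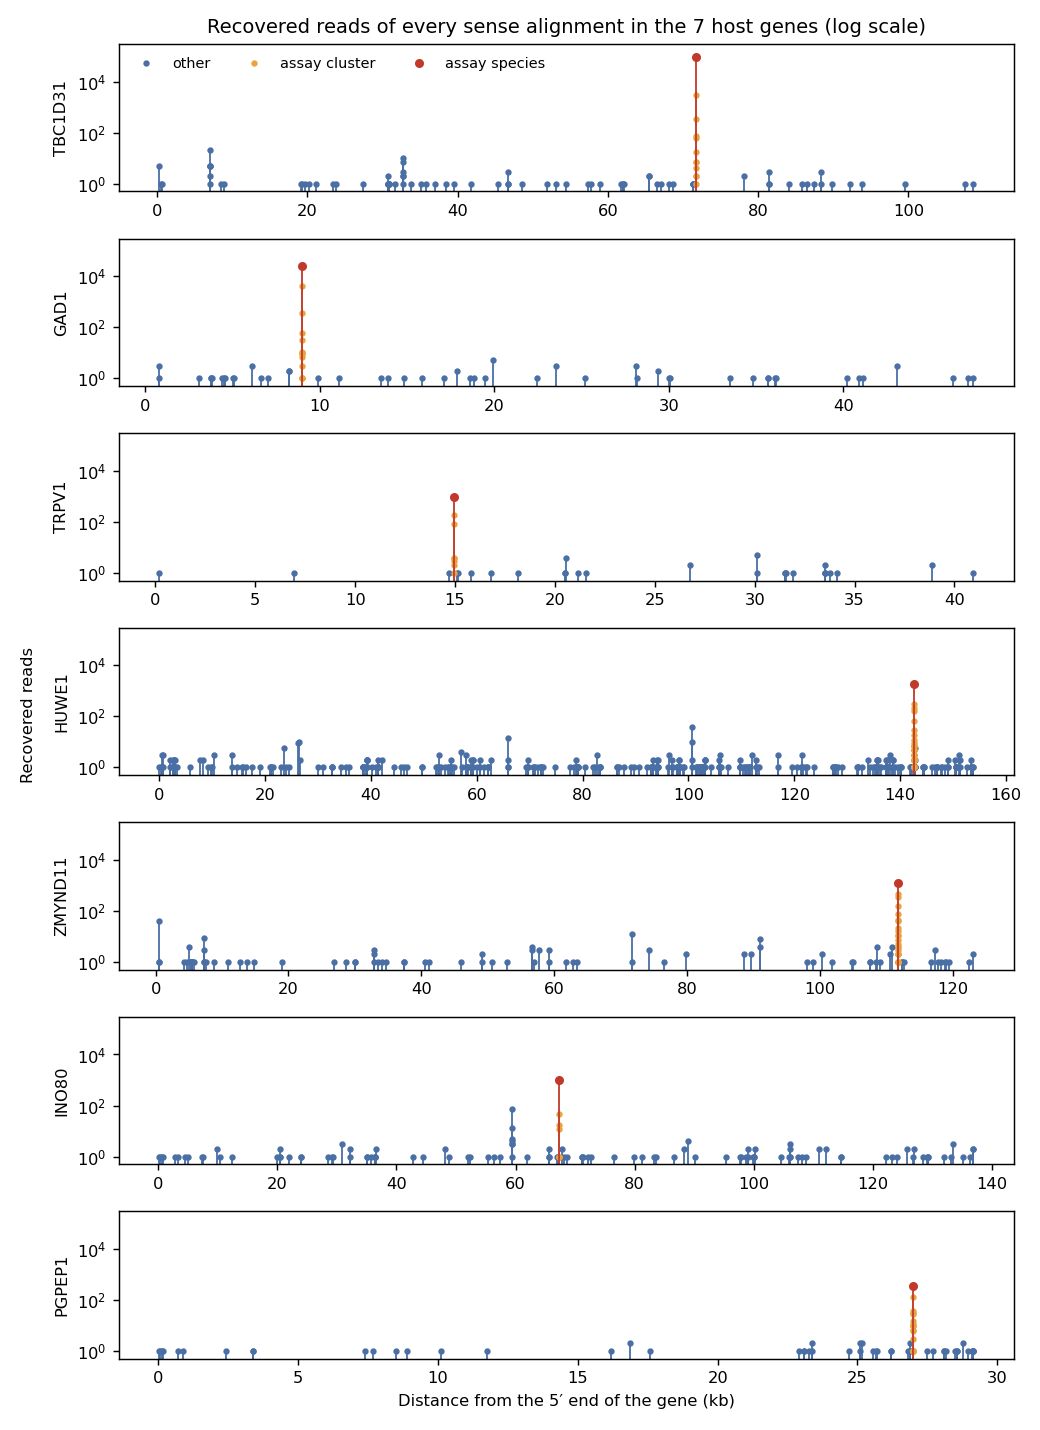
Each point is a sense alignment, placed by its distance from the 5′ end of the gene (x axis, kb) and its recovered reads (y axis, log scale), with 1 panel per gene and the assay species in red, its cluster in orange and all others in blue. One peak stands above a floor of alignments with 1 to 5 reads in GAD1 and TRPV1, and INO80 shows a second peak of 70 reads. The miRNA interval of HUWE1 is left out.

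The largest cluster after the assay cluster was a small fraction of it in every gene, with the miRNA interval of HUWE1 left out. The ratio of reads between both was 5803 in GAD1, 2538 in TBC1D31, 208 in TRPV1, 160.5 in PGPEP1, 57.5 in ZMYND11, 54.7 in HUWE1 and 10.5 in INO80. The second cluster of INO80 had the most reads of these.
INO80, second cluster (chr15:41349007-41349034, minus): atacatgatggagtacttgattctgaat
It had 99 reads in 7 alignments, 70 of them in this 28-nt alignment, which lies in intron 16 of 35, 102 nt from the nearest exon, and has 1 exact match. Its most used 5′ end held 85.9% and its most used 3′ end 84.8% of these reads. In HUWE1 the second cluster was a 13-nt alignment of 39 reads in intron 40 of 84 with 9 exact matches, and the next were a 15-nt alignment of 14 reads and a 14-nt alignment of 10 reads, both intronic. In ZMYND11 it was a 13-nt alignment of 40 reads with 99 exact matches, upstream of the MANE transcript (the reference transcript shared by the RefSeq and Ensembl sets). The other clusters of ZMYND11 that came next had 13 reads each, with 240 and 296 exact matches of their most abundant alignment. No cluster after the assay cluster had over 6 reads in GAD1, TRPV1 or PGPEP1.

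In length, the assay species were not set apart in the same way in all genes. The median of all other sense alignments was 18 nt in TBC1D31 (quartiles 15 and 20, assay species 17), 18 nt in INO80 (15 and 22, assay species 18), 16 nt in GAD1 (13 and 19, assay species 14), 14 nt in TRPV1 (13 and 16, assay species 15) and 15 nt in ZMYND11 (13 and 18, assay species 17). These 5 species lie inside the quartiles of their genes. In PGPEP1 the 13 nt of the assay species lay below the quartiles (median 18 nt, 15.5 and 20.5), and 45 of the 52 alignments outside its cluster were longer. In HUWE1 the 23 nt lay above the median of 20 nt and within the quartiles of 17 and 24. Outside the assay clusters, the share of alignments shorter than 18 nt was 13 of 52 in PGPEP1 and 111 of 336 in HUWE1, and it reached 71.4% in ZMYND11 and 78.6% in TRPV1. Of all alignments outside the assay clusters, 14.3% had a single exact match in TRPV1 and 30.8% in ZMYND11, against 73.8% in HUWE1 and 73.1% in PGPEP1.

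**Figure D3:**
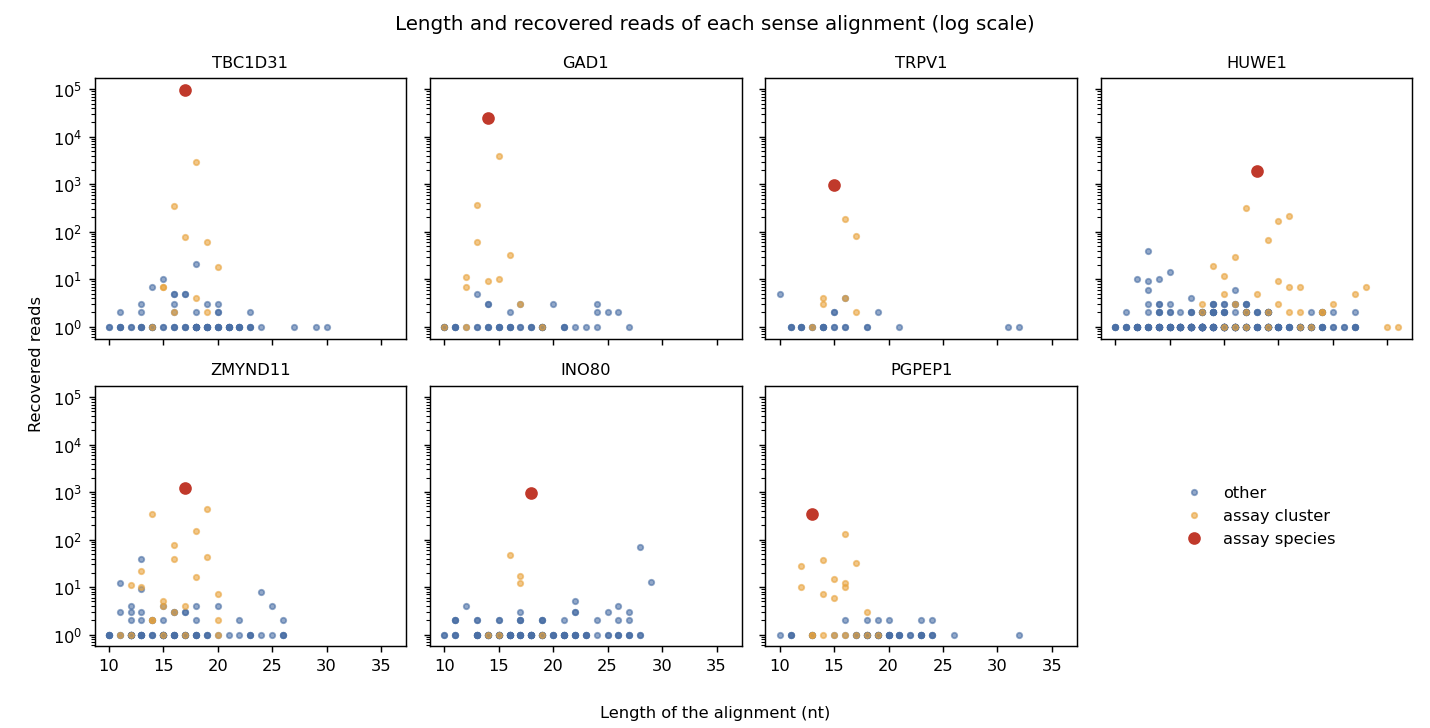
Each point is a sense alignment of the gene named above the panel, by length (x axis, nt) and recovered reads (y axis, log scale), with the assay species in red, its cluster in orange and the others in blue. The red point is the highest in each of the 7 panels, and the length at which it stands runs from 13 nt in PGPEP1 to 23 nt in HUWE1. The miRNA interval of HUWE1 is left out.

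By position, 6 of the 7 assay species are intronic and 1 is exonic. The species of PGPEP1 lies in the last exon (5 of 5), within the 3′ UTR, 2348 nt from the nearest exon edge. That of GAD1 is in intron 3 of 16 and, with 40 nt, is nearest to an exon. HUWE1 (intron 73 of 84) is 129 nt, ZMYND11 (intron 9 of 14) 249 nt and INO80 (intron 21 of 35) 299 nt from an exon. TRPV1 (intron 2 of 16) is 2043 nt from one, and there a readthrough gene on the same strand covers the species too, so that its reads cannot be assigned to either gene. The interval for the share of other alignments that overlap an exon lay above the share of exons in the length of the gene in 5 of 7 genes. In HUWE1, 180 of 369 other alignments (48.8%, 43.7–53.9%) overlapped an exon of a coding transcript, whereas exons are 10.1% of the gene, and 154 of the 180 overlapped coding sequence. In PGPEP1 the values were 78.9% (68.0–86.8%) and 25.2%, in TBC1D31 22.3% (15.1–31.8%) and 5.58%, in ZMYND11 20.2% (13.8–28.5%) and 7.16%, and in INO80 20.0% (13.8–28.0%) and 4.63%. In GAD1 (16.4%, 9.16–27.6%) and TRPV1 (8.57%, 2.96–22.4%) the interval held the share of exons in the gene, 10.0% and 11.5%. By reads instead of alignments the order turned in TBC1D31 (0.734% of the other reads were exonic), ZMYND11 (2.23%) and GAD1 (0.261%), as the other alignments include the intronic end variants of the assay species. With at least 2 reads, the share of alignments was 10.7% in TBC1D31 and 9.52% in ZMYND11. Without the alignments of the assay cluster the interval of GAD1 was 11.5–33.6% and lay above its 10.0%. For PGPEP1 the other alignments include exonic end variants of its assay species, and 95.8% of their reads were exonic. Outside its assay cluster 37 of 52 alignments were exonic (71.2%, 57.7–81.7%). Overlapping alignments are not independent, and the intervals do not allow for that.

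Reads of at least 18 nt in exons gave a level for the hosts that does not include 6 of the 7 assay clusters, as these are intronic. HUWE1 was highest with 11.8 recovered reads per kb of exon, above 89.4% of the protein-coding genes, and PGPEP1 had 5.41. TBC1D31 had 3.09, INO80 2.99, ZMYND11 1.91, GAD1 1.25 and TRPV1 0.397, against a median of 1.38 over all 19,821 coding genes. The level of GAD1 rests on 6 reads and that of TRPV1 on 2. The order of the assay clusters was different, with 98,964 reads in TBC1D31, 29,016 in GAD1 and 2790 in HUWE1. The 5.41 of PGPEP1 includes 5 reads of its assay cluster.

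By value, the 5′ end of the assay cluster was more uniform than its 3′ end in all 7 genes, with little difference in INO80. The most used 5′ end held 99.7% of the cluster's reads in GAD1 (99.6–99.7%), 99.6% in TBC1D31, 93.9% in INO80 (92.3–95.2%), 92.7% in TRPV1 (91.1–94.0%), 86.6% in PGPEP1 (83.8–89.0%), 86.2% in HUWE1 (84.9–87.4%) and 79.0% in ZMYND11 (77.3–80.5%). It was the 5′ end of the assay species in all 7. The most used 3′ end was that of the assay species as well, and held 96.8% in TBC1D31, 93.4% in INO80 (91.8–94.8%), 84.7% in GAD1 (84.3–85.1%), 79.2% in HUWE1 (77.7–80.7%), 77.8% in TRPV1 (75.5–80.1%), 63.9% in PGPEP1 (60.1–67.5%) and 52.1% in ZMYND11 (50.1–54.1%). In INO80 the intervals of both ends overlap, and in the other 6 genes they do not. Both ends belong to the same reads, so the overlap of intervals is no test of their difference. These shares are a description, since the assay species is itself the most abundant alignment of each cluster.

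**Figure D4:**
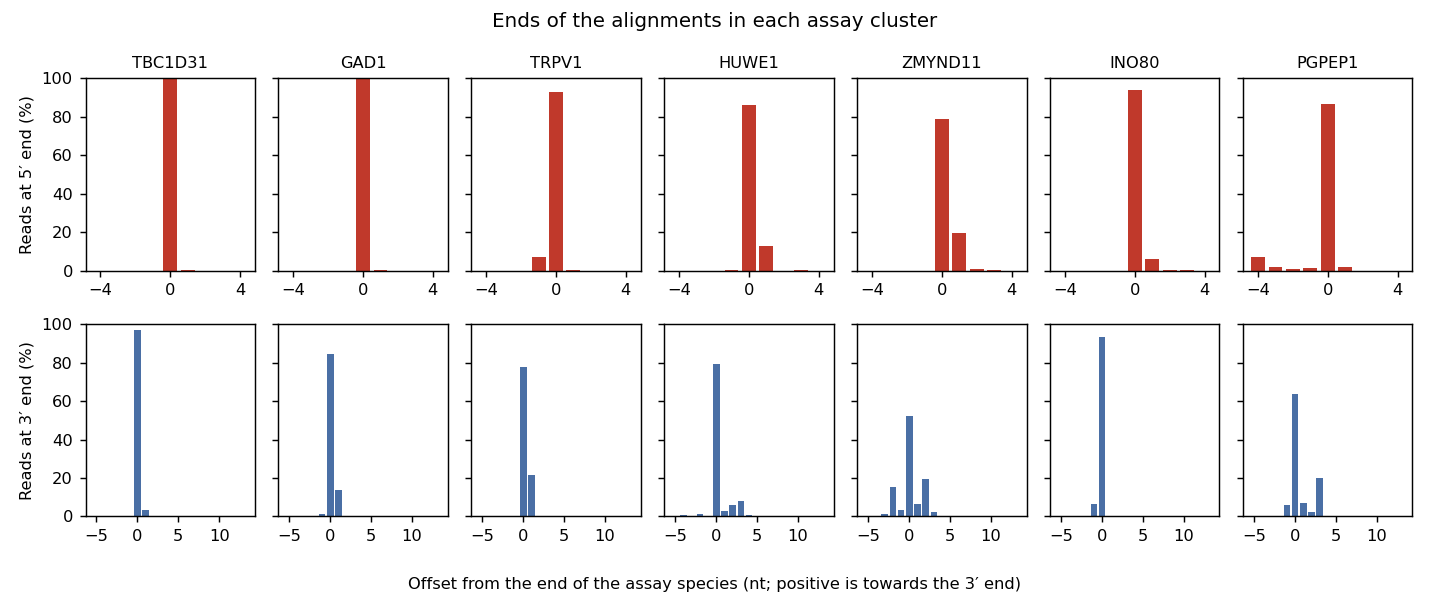
Bars give the share of the reads of each assay cluster (y axis, %) whose 5′ end (upper panels, red) or 3′ end (lower panels, blue) lies at the given offset from that of the assay species (x axis, nt). The bar at 0 is the highest in all 14 panels and falls to 52.1% at the 3′ end of ZMYND11.

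The end variants differed in kind between the genes. In HUWE1 34 alignments of 18 to 36 nt formed the cluster, with 15 different 3′ ends and 6 different 5′ ends, and all 34 have a single exact match. The C box and D box letters of the species are read on its own strand at bases 6 to 12 and 18 to 21, and 31 of the 34 alignments, with 2768 of 2790 reads, hold both. That count follows from the place of the letters inside the species, as any stretch there is kept when the ends move by few bases. The alignments shown next have ends moved by 1 base at the 5′ end (320 reads) and by 3 at the 3′ end (219 reads), and have the most reads after the first.
HUWE1, 22 nt: cctgATGATGAgcactCTGAag
HUWE1, 26 nt: gcctgATGATGAgcactCTGAagctt
Among the most abundant alignments of all clusters with 20 to 26 nt outside annotated small RNAs, 0.467% (1656 of 354,761) hold these letters in this order. Inside annotated small RNAs it was 0.221% (4 of 1813). That set mixes small nucleolar RNAs with other kinds, so it cannot say how often fragments of the former hold the letters. Whether the HUWE1 species comes from such an RNA was not tested. None of the other 6 assay species holds the letters of both boxes. No gene is annotated at this position within HUWE1, 129 nt from the nearest exon.

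In GAD1 and TRPV1, longer end variants have letters in the reference that differ from those of the other positions. The deposited values hold no read sequences, so the bases of these reads are not known. Whether the reads came from the other positions was not tested. The 14-nt species of GAD1 had 24,490 reads, and the alignments at its 4 other exact matches, all on the minus strand of chromosome 1 between 161417361 and 161439546, had 24,104 to 24,783. The ratio of the highest to the lowest was 1.03, and GAD1 held 20.0% of the 122,269 reads. At 15 nt the letters differ, and so did the reads.
GAD1, 15 nt: gcgggcggacctttG
chromosome 1, 15 nt: gcgggcggacctttT
The first, which has 1 exact match, had 4014 reads. The second had 62,401 to 65,849 at each of the 4 positions, up to 16.4 times as many, and the change is T15G with the base of chromosome 1 first. Only 14.0% of the reads of the GAD1 cluster (4061 of 29,016, 13.6–14.4%) lay in alignments with a single exact match.

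The 15-nt species of TRPV1 had 965 reads and the 8 other listed alignments of its sequence had 867 to 930, so that TRPV1 held 11.8% of 8162 reads. Its 16-nt extension had 188 reads and 1 exact match.
TRPV1, 16 nt: tgtgctctggagtttC
chromosome 4, 16 nt: tgtgctctggagtttT
The sequence on chromosome 4 (chr4:124429988-124430003, minus) had 9375 reads, and alignments of this length at further positions on chromosomes 6 and X had 9223 and 9122. The change is T16C. In TRPV1, 22.2% of the reads of the cluster (277 of 1250, 19.9–24.5%) lay in alignments with a single exact match.

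PGPEP1 had the most widely shared letters. Of 37 exact matches, 29 were listed with 281 to 366 reads each (median 326), of which PGPEP1 had 343, or 3.60% of 9521. The remaining matches were not listed, so this share covers the listed positions only. Its second alignment is shown because the 3 bases beyond the assay species, in capitals, make it unique in the genome.
PGPEP1, 16 nt: ggggatgtagctcAAA
It had 130 reads (20.2% of the cluster). With this alignment, the PGPEP1 cluster was the largest of the 29, with 642 reads against a median of 388. Alignments with a single exact match held 20.6% of its reads (132 of 642, 17.6–23.9%).

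ZMYND11 and INO80 resemble more abundant listed sequences, shown above, at a distance of 2 substitutions. The 17-nt species of ZMYND11 had 1216 reads, which is 0.300% of the 405,896 reads of the 17-nt alignment at 69524343 on chromosome 10, and the 20-nt alignment there had 1,342,279. The second alignment of ZMYND11, with 19 nt and 448 reads, carried both changes too. A 14-nt alignment of ZMYND11 without these 2 bases had 345 reads. It shares its letters with 3 other positions, and the 4 were listed with 319 to 345 reads. Alignments with a single exact match held 83.4% (81.9–84.9%) of the reads of the ZMYND11 cluster. The 18-nt species of INO80 had 957 reads, or 6.18% of the 15,490 reads of the 18-nt alignment at 40886005 on chromosome 15. A 16-nt alignment of INO80 that lacks both changed bases had 48 reads, and the 7 positions of its sequence had 48 to 77. Of the reads of the INO80 cluster, 93.5% (91.9–94.9%) lay in alignments with a single exact match. Whether reads of ZMYND11 or INO80 came from these positions was not tested, and the deposited values hold no read sequences.

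These resemblances were set beside other sncRNAs. The comparison took the 778 clusters inside protein-coding genes on the sense strand, outside annotated small RNAs, whose most abundant alignment had at least 343 reads, the number of PGPEP1. Of these alignments 62.1% were shorter than 18 nt, 50.5% shared their sequence with another listed alignment, and 61.4% had an alignment of more reads elsewhere that holds their letters with at most 2 substitutions. The last rule was chosen after the values had been seen. The members had 5 of 7, 3 of 7 and 5 of 7, which is near these shares. Among the 483 alignments shorter than 18 nt, 72.5% shared their sequence, and among the 295 longer ones 14.6% did.

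Features of tRNA genes were searched around the ends on the strand of the alignment, namely the B box letters GTTCNANNC within 60 bases upstream and TTTT from the last 4 bases to 10 bases downstream. None of the 7 assay species had either feature, in a search laid out for 3′ trailers that would miss fragments from the 5′ part of a tRNA. Both were present at the 4 positions of chromosome 1 with the GAD1 sequence, and at the positions on chromosomes 10 and 15 shown for ZMYND11 and INO80. For TRPV1, 1 of the 9 positions with its sequence had both, that on chromosome 4. Those on chromosomes 6 and X, with clusters of 10,131 and 11,641 reads, had TTTT but no B box letters. Of all 2,625,975 clusters 0.106% had both, and of the 778 abundant clusters in genes 0.771%. A match of letters is a description, and these positions had been picked by their reads.

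TBC1D31 stood apart by its number of reads. Its 17-nt species lies on the plus strand at chr8:124125933-124125949, in intron 10 of 21 and 4072 nt from the nearest exon. It had 95,435 reads and a GC content of 41.2%, the letters have a single exact match, and 11 positions of the genome differ from them by 1 base. The next alignments were 1 base longer at the 3′ end (3005 reads), 1 base shorter at the 5′ end (345 reads), and moved by 1 base at both ends (76 reads). Of the cluster, 99.98% of the reads lay in alignments with a single exact match (98,947 of 98,964). No listed alignment with more reads holds its letters with at most 2 substitutions. As the search took only alignments with more than 95,435 reads, less abundant listed alignments that resemble the species were not sought. The 16-nt variant is within 1 substitution (C12A) of a more abundant 18-nt alignment of 16,941 reads elsewhere. After the assay cluster, the clusters of most reads in TBC1D31 had 39, 23 and 7 reads, the first and the second of them intronic.

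HUWE1 also hosts the miRNAs let-7f-2 and miR-98 in an intron, and the interval chrX:53583100-53584300 was left out for them. It held 66 alignments and 44,143 reads, 43,326 of them on MIRLET7F2 and 817 on MIR98, or 15.8 times the reads of the assay cluster of HUWE1. With the interval, the assay species and alignments within 3 nt held 5.73% of the sense reads of HUWE1.

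Relatives of the hosts gave no common picture. The 23 genes described are the paralogs GAD2 and PGPEP1L, the channels TRPV2 to TRPV6, the HECT ligases TRIP12 and HERC2, the bromodomain proteins ZMYND8, BRD7 and BRD9, 8 subunits of the INO80 complex, and the satellite and centriole proteins PCM1, OFD1 and CEP290. Of the 21 with at least 10 sense alignments, 7 had a top cluster with at least 50% of the reads, against 20.2% of all genes under the same rule, and the median top cluster held 22.6%, near the 25.6% of all genes. INO80D, a subunit of the INO80 complex, had 87.7% of 747 reads in a cluster whose main alignment is 15 nt long. GAD2, the other enzyme of GABA synthesis, had 75.7% of 548 reads in a cluster led by a 17-nt alignment, and no read of at least 18 nt in its exons. RUVBL2 (70.5%), ACTR8 (60.6%), PGPEP1L (60.4%), OFD1 (52.0%) and RUVBL1 (50.6%) were the others. The top cluster held 25.8% of the reads in TRIP12 and 8.81% in HERC2. The assay cluster of HUWE1 held 84.7% with the miRNA interval left out. In the 4 TRPV channels with at least 10 alignments the top cluster held 9.38 to 33.3%, against 97.0% in TRPV1. HUWE1 and TRPV1 were chosen for an abundant species, so nothing is read from these contrasts.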

How the data were processed

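RNA of 3 K562 batches was sequenced. The submitters' notes name Bowtie2 2.2.9 and the build GRCh37 (hg19), and the authors state that reads with a unique position were kept. Since 3 of the 7 species have several exact matches listed with near-equal reads, how such reads were placed is not known. The deposited counts of reads and RPKM values pool the batches, 1 line per alignment of 10 to 42 nt. The deposited RPKM equals the deposited count of reads scaled by alignment length and by 54,140,681 reads in total. The deposited counts are multiples of near neighbours (within 3 nt) for 1,246,133 of 1,246,133 alignments that have one, and were divided by that number. Genes, exons and MANE transcripts are those of GENCODE release 44 on GRCh37, which holds no tRNA genes. Exact matches were counted on both strands of the genome. The coordinates of the assay species were taken from the supplementary list of the study and their values from the deposited profile. The 7 genes and all gene lists were chosen with earlier results of these data known. For each gene the assay species and the 3 other clusters of most reads were described.

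No test was made, as pooled values hold no replicates. Shares have Wilson 95% intervals. Alternatives were deposited reads, other widths of the species, at least 2 reads, at least 18 nt, single exact matches, overlap with the bounds, removal of annotated small RNAs, and the interval of HUWE1 kept. The search for neighbours, recovered reads, clusters and matches was tested on simulated data. Python 3.11.15, numpy 2.4.6, pandas 2.3.3, scipy 1.17.1 and numba 0.67.0 were used. Some genes of the marker and related-gene lists are not reported here. The 6 HEK293 samples were not analysed here.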

Additional observations from a re-analysis of the deposited data

How the results depend on the processing

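No paired analysis was possible because the deposited values pool the 3 batches, and for the same reason no replicate could be left out and depth limits each value only through its count. The number of genes in which the assay species and alignments within 3 nt held at least 50% of the sense reads was 7 with deposited reads, the whole cluster, at least 2 reads, overlap with the bounds, single exact matches and removal of annotated small RNAs, 5 with the exact alignment alone, 6 with the HUWE1 interval kept, and 4 with alignments of at least 18 nt, where the short species of GAD1, TRPV1 and PGPEP1 and their neighbours drop out by construction. The median length of all other alignments, 18 nt, was 16 nt when weighted by reads. Their exonic share, 36.7%, was 5.61% of reads, 46.9% of alignments of at least 18 nt and 30.04% of those with at least 2 reads, and it was 39.6% outside the assay clusters, an alternative added after the data had been seen. Counts of genes with at least 90% of reads at 1 end (4 at the 5′ end and 2 at the 3′ end) were the same with deposited reads. Protein-coding genes with a dominant cluster numbered 3202, and 863 with at least 80% of the reads. Of the other values by gene, 76 stayed within their interval and 64 moved out of it.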
